A study of Mus musculus with 12 samples.

Results

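The genes described here are 31 genes of mitochondrial and peroxisomal fatty acid oxidation together with targets and regulators of the PPAR nuclear receptors. They were taken as a list by name, and each gene was read through its brightest probe set by the mean of all 12 arrays. Of the 31 genes, 30 had a probe set assigned to that gene alone, and all 30 were above the filter on low values, among 15237 genes tested of 18193. Ucp2 was not analysed here. A further probe set was present for 16 of the 30 genes.

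Total RNA of C57BL6 mice was hybridised to 12 Affymetrix expression arrays in 4 groups of 3. The groups were wild type (WT) mice on a normal diet, Sgpp2-/- mice (KO) on a normal diet, WT mice on a high-fat diet and KO mice on a high-fat diet. Sgpp2 encodes an endoplasmic reticulum enzyme that dephosphorylates the signalling lipid sphingosine-1-phosphate, and the title of the series concerns β-cells of the pancreatic islet. The design of the knockout allele, the number of mice behind each array, their age and sex and the length of the diet were not given in the sources used. The labels do not say that the arrays of a group came from separate animals, and p-values therefore reflect only how far these samples scatter, which may be technical.

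Islet hormones were bright on these arrays, with a mean log2 value of 14.57 for Ins2, 14.40 for Gcg and 14.27 for Sst. Acinar enzymes of the exocrine pancreas were also bright (Cela3b, 14.38), while the fat cell genes Adipoq, Lep and Cidec read 3.53, 4.29 and 4.54 and were below the filter, although Fabp4, known in fat and endothelium, read 11.53. Sgpp2 itself was lower on every KO array than on every WT array, with a log2 difference of −0.46 averaged over the diets (SE 0.05, limma adjusted p = 0.00327). Its probe set read 10.99 to 11.17 on KO arrays and 11.46 to 11.63 on WT arrays, so that the signal was reduced and not lost. WT high-fat array 2 stood apart from the other WT arrays: on the first principal component, with 27.1% of the variance, it scored 6.5, among the KO arrays (2.4 to 26.2) and away from the other WT arrays (−21.1 to −7.5). The highest score, 26.2, was that of KO high-fat array 3. KO arrays with the same replicate number varied together between the diets, and the KO arrays may therefore not be independent of each other.

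Fatty acids enter mitochondria as carnitine esters through Cpt1a, Slc25a20 and Cpt2, and are then shortened in cycles of dehydrogenation, hydration, a second dehydrogenation and thiolysis. Electrons of the first step pass through the electron transfer flavoprotein (Etfa, Etfb) and Etfdh to the respiratory chain, and very long or branched chains are first shortened in peroxisomes. PPARα, encoded by Ppara, is a nuclear receptor activated by fatty acids that raises transcription of much of this pathway, and Ppargc1a encodes its coactivator PGC-1α. In β-cells, high rates of fatty acid oxidation are known to compete with glucose oxidation, and prolonged exposure to fatty acids is known to impair insulin secretion.

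Promoter windows of 300 bases around each gene start, from RefSeq (build GRCm38.p6), were matched for 26 of the 30 genes. Windows of genes on which the results turn are shown.

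The window of Hadhb, at chr5:30155003-30155302 on the plus strand, is shown because it overlaps the window of its partner gene. Hadha starts on the opposite strand, and the capitals mark the 228 bases that lie in both windows.
Hadhb: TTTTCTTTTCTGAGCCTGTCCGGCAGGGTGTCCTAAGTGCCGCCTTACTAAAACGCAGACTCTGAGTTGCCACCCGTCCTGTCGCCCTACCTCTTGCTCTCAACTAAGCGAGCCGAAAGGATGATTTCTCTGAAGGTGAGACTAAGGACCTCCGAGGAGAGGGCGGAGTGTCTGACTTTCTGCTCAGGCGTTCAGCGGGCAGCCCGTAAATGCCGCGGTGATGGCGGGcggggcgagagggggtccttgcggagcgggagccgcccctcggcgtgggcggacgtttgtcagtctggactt

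The window of Ppargc1a, at chr5:51567676-51567975 on the minus strand, is shown because this gene had the largest diet difference of the list. The capitals mark the 1 match to TGACG, a half-site of the cAMP response element, which lies on the opposite strand.
Ppargc1a: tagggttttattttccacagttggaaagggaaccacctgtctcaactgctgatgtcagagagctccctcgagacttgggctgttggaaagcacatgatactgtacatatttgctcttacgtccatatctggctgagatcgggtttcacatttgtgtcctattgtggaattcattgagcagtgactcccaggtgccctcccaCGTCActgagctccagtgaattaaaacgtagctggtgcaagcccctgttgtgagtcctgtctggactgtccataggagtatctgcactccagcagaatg

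The window of Cpt1a, at chr19:3323051-3323350 on the plus strand, is shown because the probe sets of Cpt1a differed in sign. The capitals mark the 1 match to AGGTCA, the half-site bound by PPAR and other nuclear receptors, again on the opposite strand.
Cpt1a: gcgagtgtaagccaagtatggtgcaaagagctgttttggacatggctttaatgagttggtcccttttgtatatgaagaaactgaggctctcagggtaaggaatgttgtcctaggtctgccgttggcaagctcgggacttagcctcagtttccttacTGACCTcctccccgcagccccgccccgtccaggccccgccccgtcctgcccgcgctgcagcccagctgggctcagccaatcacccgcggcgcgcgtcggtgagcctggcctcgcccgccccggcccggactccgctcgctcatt

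Both motifs were searched on both strands. AGGTCA occurred in 5 of the 26 windows (19.2%; Acadm, Acadvl, Cd36, Cpt1a and Plin2), against 16.3% of all 32851 windows of the same length. TGACG occurred in 7 (26.9%; Acadm, Acot2, Ehhadh, Etfa, Etfdh, Ppara and Ppargc1a), against 20.8%. The full PPAR element, a direct repeat of the first motif with 1 free base between the copies, occurred in 0 of the 26 and in 13 windows in all (0.0396%). A match describes letters in these windows and shows no binding.

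On the normal diet most genes of fatty acid oxidation read lower in KO, each by a small amount, and 2 of them passed the test. In KO, Acadl, the long-chain acyl-CoA dehydrogenase, fell by 0.85 in log2 units (SE 0.17, 1.81-fold, adjusted p = 0.0468). The probe set of Hadhb, the β subunit of the mitochondrial trifunctional protein, rose by 0.57 (SE 0.11, 1.48-fold, adjusted p = 0.0445), but the other probe sets of this gene did not follow. Called genes are those with a Benjamini-Hochberg adjusted p under 0.05 in a limma fit over all 15237 genes, of which 0.84% were called in this comparison, 0.479% higher and 0.361% lower. Of the 30 genes 23 had lower means in KO and 7 had higher means, while 59.8% of all genes tested were lower. The median difference was −0.211 on the log2 scale against −0.054 over all genes. At an unadjusted p under 0.05 there were 15 of the 30 genes, 12 of them lower, and 22.1% of all genes. In 17 of the 30 genes every KO array lay below every WT array, which 22.2% of all genes did, and in 2, Hadhb and Acaa1a, every KO array lay above, as in 12% of all genes.

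Both calls on the normal diet were close to the threshold. They were lost without any 1 of the 6 normal-diet arrays, with an adjusted p of 0.0594 to 0.185 for Hadhb and 0.0651 to 0.185 for Acadl, although the differences themselves stayed between 0.48 and 0.64 and between −0.94 and −0.76. Both were also lost without WT high-fat array 3 (0.0557 and 0.0507) or KO high-fat array 1 (0.0608 and 0.0654), that of Hadhb without KO high-fat array 2 (0.0601) and that of Acadl without WT high-fat array 1 (0.0525). A fit that blocks on replicate number lost both as well (0.0632 for Hadhb and 0.0731 for Acadl), and with KO pairs as a random block Hadhb was the only gene of the list called.

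On the high-fat diet the median genotype difference of the list was closer to 0, and 0 of the 30 genes were called, against 4 genes in all (0.0263%). At an unadjusted p under 0.05 there were 4 of the 30, 2 higher and 2 lower, and 13.4% of all genes. The median was −0.106 against −0.029, with 22 genes lower and 8 higher, while 56.7% of all genes tested were lower. Only Acadl and Acat1 had every KO array below every WT array (7.52% of all genes), and Acaa1a, Hadhb and Pdk4 had every KO array above (7.31%). Without WT high-fat array 2, Hadhb and Acaa1b were called, and 272 genes in all.

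Averaged over the diets, with 6 arrays against 6, 4 of the 30 genes were called, and 6.32% of all genes (3.3% higher and 3.02% lower). Hadhb rose by 0.54 (adjusted p = 0.00689) and the peroxisomal thiolase Acaa1a by 0.36 (adjusted p = 0.011), while Acadl fell by 0.74 (adjusted p = 0.00965) and Etfa, the α subunit of the electron transfer flavoprotein, by 0.29 (adjusted p = 0.0465). The differences of 23 genes were below 0, as were 59.5% of all genes, and the median was −0.168 against −0.041. At an unadjusted p under 0.05 there were 15, with 28.6% of all genes. Every KO array lay above every WT array of both diets for Hadhb and Acaa1a (2.77% of all genes) and below for Acadl (2.22%). Without WT high-fat array 2 the count was 11 (Acaa1a and Hadhb higher, and Acaa1b, Acadl, Acads, Acadvl, Cpt2, Decr1, Eci1, Etfa and Etfb lower), while 2500 genes were then called. With the same-numbered KO arrays as a random block 352 genes were called in place of 963, and Acadl, Hadhb and Acaa1a were the called genes of the list. The direction of the calls over all genes depended on the scaling: 52.2% of the calls were rises as deposited, 71.2% after cyclic loess and 80.8% after centring each array on its median, and on the normal diet the shares were 57%, 76.4% and 81.5%. The split of the 30 genes moved little, with 22 to 24 lower on the normal diet and 23 lower in each setting of the average.

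**Figure D1:**
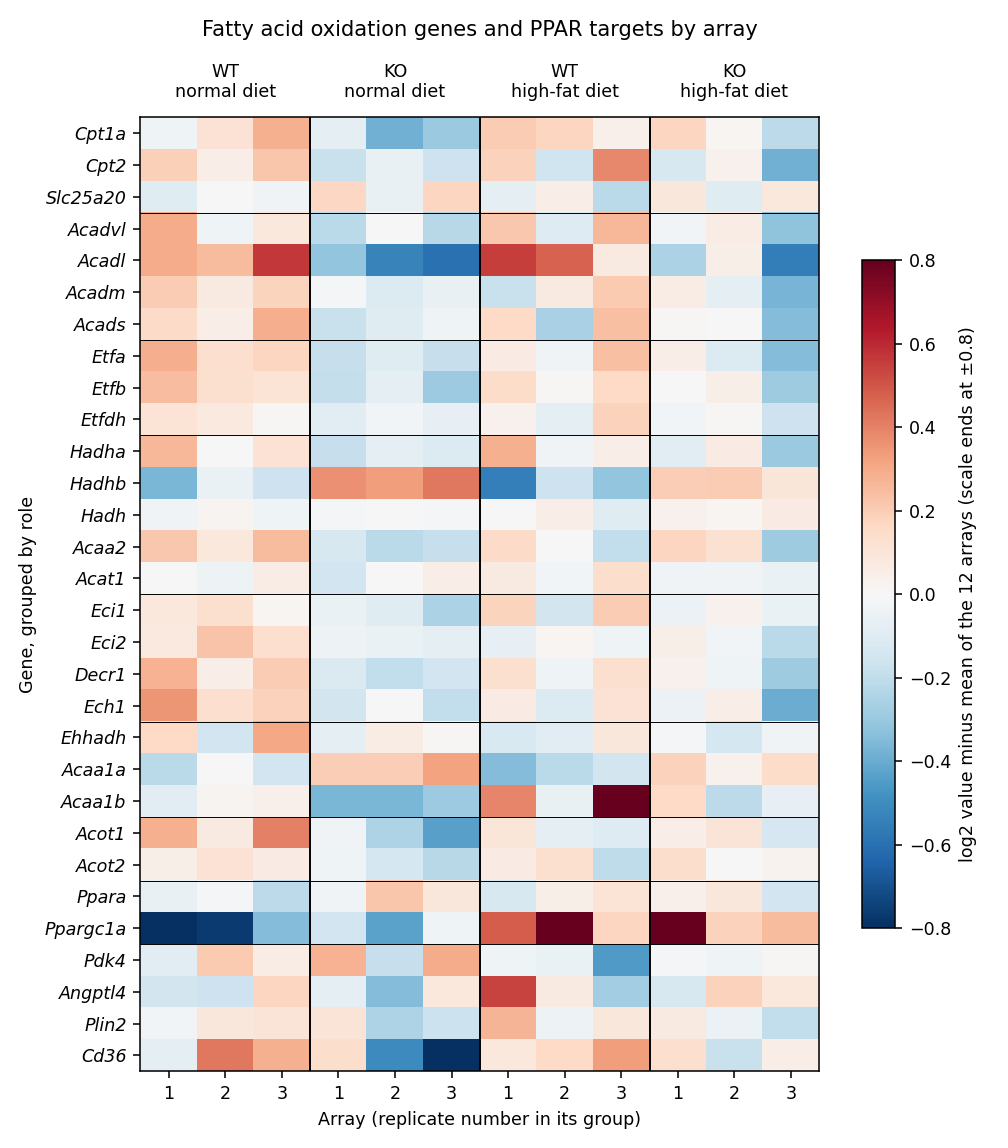
Heat map of 30 genes (rows, grouped by role) on the 12 arrays (columns, by group), coloured by the log2 value minus the gene's mean over the 12 arrays, with red above and blue below that mean. The KO normal columns and KO high-fat array 3 are mostly blue, Hadhb and Acaa1a run the other way, and Ppargc1a separates the diets.

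Each array was also described by 1 value, its deviation from the mean of all 12 arrays averaged over the 30 genes. This was 0.041, 0.041 and 0.113 on the 3 WT normal arrays, and −0.059, −0.124 and −0.114 on the KO normal arrays. On the high-fat diet it was 0.096, 0.016 and 0.069 in WT, and 0.056, 0.011 and −0.144 in KO. The groups did not overlap on the normal diet and overlapped on the high-fat diet, where KO array 3 was lowest. Markers of other cells were read beside these values, with 0 called on the normal diet in the 3 lists that follow. All 13 acinar markers measured read higher in KO (median 0.283; mean level 12.22 to 12.56 on WT and 12.45 to 12.81 on KO arrays, which overlap). All 10 endothelial markers read lower (median −0.172), and their array score, formed in the same way, was −0.044 to 0.142 on WT and −0.204 to −0.135 on KO normal arrays, without overlap. Of 8 β-cell markers 6 read lower (median −0.074; mean level 13.56 to 13.63 on WT and 13.50 to 13.56 on KO arrays). Their part in the difference of the oxidation genes was not tested, and on whole-tissue RNA fewer cells of a type and less RNA per cell cannot be told apart.

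**Figure D2:**
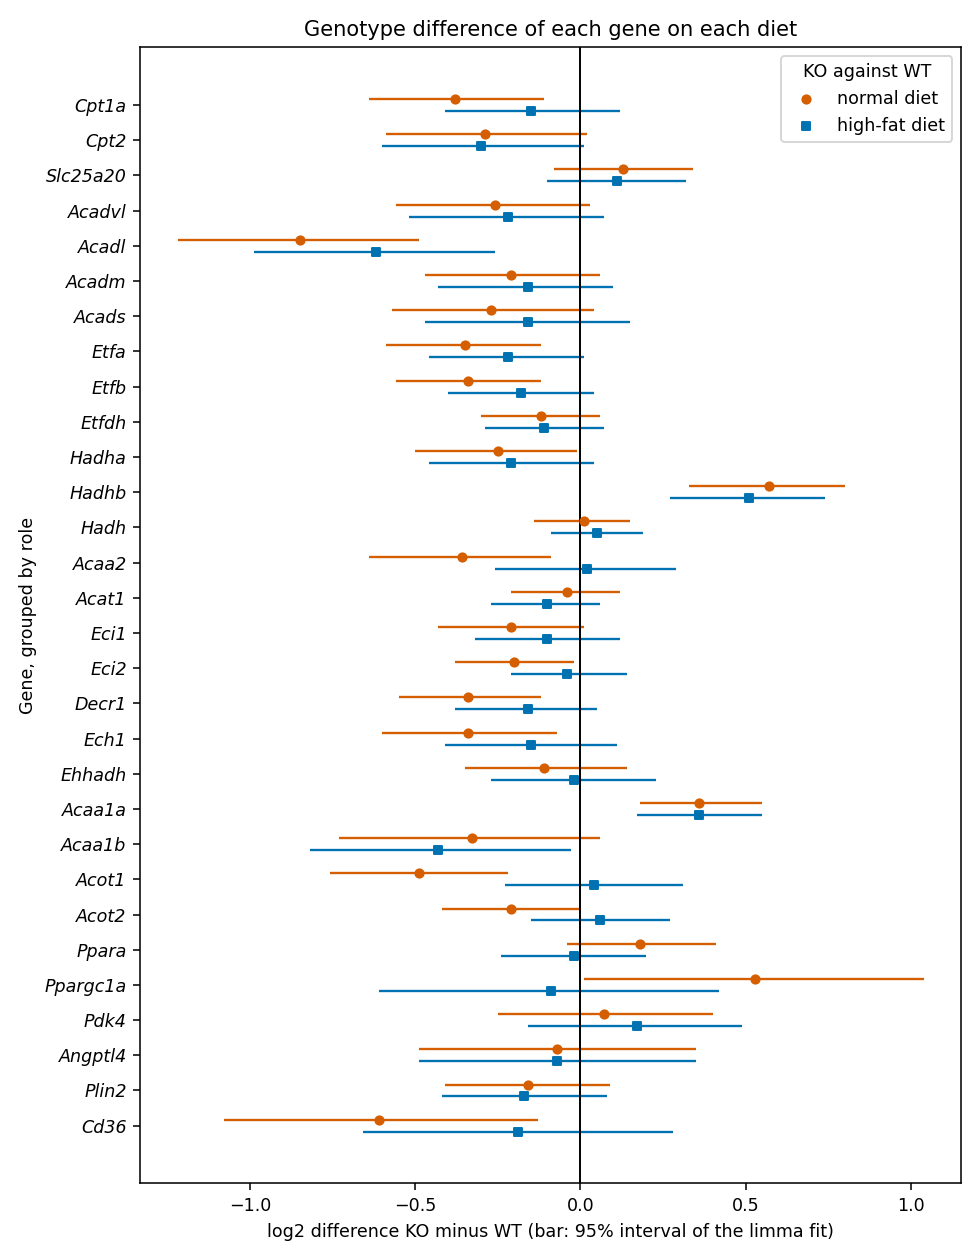
Log2 difference KO minus WT of 30 genes, grouped by role, on the normal diet (orange circles) and the high-fat diet (blue squares), with 95% intervals of the limma fit for 3 against 3 arrays. Most points lie left of 0 on the normal diet and closer to 0 on the high-fat diet, with Acadl farthest to the left, and Hadhb and Acaa1a to the right on both diets.

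Of the 3 genes that carry fatty acids into mitochondria, 0 were called by genotype. Cpt1a, the outer membrane acyltransferase that sets the rate of entry, read 10.50, 10.65 and 10.82 on WT normal arrays and 10.46, 10.15 and 10.24 on KO normal arrays. Under high fat it read 10.74, 10.71 and 10.58 in WT and 10.71, 10.55 and 10.33 in KO. The genotypes did not overlap on the normal diet, by a narrow margin, and overlapped on the high-fat diet. The difference was −0.38 on the normal diet (SE 0.12, adjusted p = 0.124), and on high-fat arrays it was −0.15 (adjusted p = 0.599). This sign rests on a probe set that was the brightest by a narrow margin, with a mean of 10.54. The other sets of Cpt1a, with means of 10.51 and 10.19, had higher group means in KO on both diets, as described further below. Cpt2, the inner membrane acyltransferase, had a mean of 12.05 over the arrays and a difference of −0.29 averaged over the diets (adjusted p = 0.0872). Slc25a20, the carnitine carrier between them, had a mean of 12.65 and a difference of 0.12 (adjusted p = 0.257). Its second probe set, with a mean of 9.73, went the other way. The normal-diet means of that set were 9.85 in WT and 9.64 in KO, without overlap of the arrays. On the high-fat diet they were 9.74 and 9.71, with overlap.

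All 4 acyl-CoA dehydrogenases, which carry out the first step on chains of different length, read lower in KO on both diets, and Acadl alone was called. Acadl read 10.93, 10.89 and 11.20 on WT normal arrays and 10.32, 10.10 and 10.04 on KO normal arrays. The high-fat values were 11.19, 11.11 and 10.71 in WT and 10.38, 10.68 and 10.08 in KO. No KO array reached the lowest WT array of either diet. The difference was −0.85 on the normal diet, −0.62 under high fat (SE 0.17, 1.54-fold, adjusted p = 0.172) and −0.74 averaged (SE 0.12, 1.67-fold, adjusted p = 0.00965). The averaged call held without each of the 12 arrays in turn (adjusted p = 0.0112 to 0.0316). The other probe set of Acadl was below the filter, with a mean of 4.10 and a difference of −0.13, and with the mean of both probe sets the averaged difference was −0.44 (adjusted p = 0.0255). For Acadvl, Acads and Acadm, which act on very long, short and medium chains, the averaged differences were −0.24, −0.21 and −0.18, with adjusted p of 0.124, 0.18 and 0.183.

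Acadl lies on chromosome 1, as Sgpp2 does, 82 protein-coding genes away in the RefSeq order. Of the 81 genes between them 67 were tested, and averaged over the diets 10 of these were called, 4 higher and 6 lower, or 14.9% against 6.32% of all genes. The nearest of the 67, Myl1, a myosin light chain, differed by 0.03, and the next, Lancl1, a glutathione-binding protein, fell by 0.61 (adjusted p = 0.00862). On the other side of Acadl, Kansl1l rose by 0.45 (adjusted p = 0.011). For Acadl, effects of losing Sgpp2 and of any linked chromosome 1 sequence that may have come with the mutant allele cannot be told apart.

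The 3 genes of electron transfer read lower in KO on each normal-diet array, without overlap with WT, as did 22.2% of all genes. Etfa read 12.45, 12.29 and 12.33 on WT normal arrays and 11.97, 12.06 and 11.97 on KO normal arrays. With the high-fat diet it read 12.22, 12.13 and 12.40 in WT and 12.21, 12.05 and 11.81 in KO, so that the genotypes overlapped there. Averaged over the diets the difference was −0.29 (SE 0.08, 1.22-fold, adjusted p = 0.0465). This call held in 5 of 20 alternatives. It was lost with the KO pairs as a random block (adjusted p = 0.0873), with the replicate number as a block (0.0782), after centring each array on its median (−0.24, 0.0822), with no filter (0.0532), with the mean of probe sets (0.0506) and without any 1 of the 10 arrays that remain when WT high-fat 2 and KO high-fat 1 are set aside (adjusted p = 0.062 to 0.117). Its partner subunit Etfb differed by −0.26 (adjusted p = 0.0512), and Etfdh, which passes the electrons to ubiquinone, by −0.11 (adjusted p = 0.215).

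**Figure D3:**
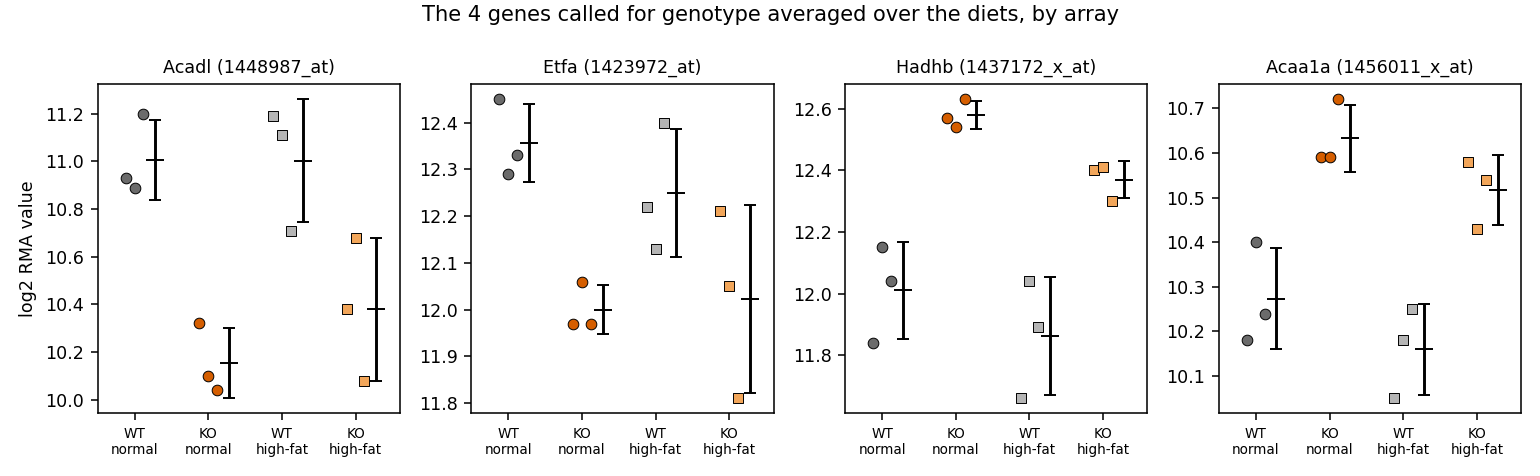
Log2 values of Acadl, Etfa, Hadhb and Acaa1a by array in the 4 groups (circles, normal diet; squares, high-fat diet; grey, WT; orange, KO), with the group mean and SD over 3 arrays beside the points; the axes start above 0 and differ between panels. Acadl is lower on every KO array, from 10.04 to 10.68, than on any WT array, Hadhb and Acaa1a are higher on every KO array, and Etfa overlaps on the high-fat diet.

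The steps from hydration to thiolysis held the clearest rise and a disagreement between probe sets. On its brightest probe set, 1437172_x_at, Hadhb read 11.84, 12.15 and 12.04 on WT normal arrays and 12.57, 12.54 and 12.63 on KO normal arrays. High-fat arrays read 11.66, 12.04 and 11.89 in WT and 12.40, 12.41 and 12.30 in KO. Every KO array was above every WT array, and under high fat the difference was 0.51 (SE 0.11, adjusted p = 0.142). The averaged rise of 0.54 held without each of the 12 arrays in turn (adjusted p = 0.00273 to 0.0254).

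The 2 other probe sets of Hadhb did not show this rise. Probe set 1426522_at, with a mean level of 12.14, read 12.26, 12.23 and 12.18 on WT normal arrays and 12.14, 12.11 and 12.13 on KO normal arrays, so that each KO array was slightly lower. Its averaged difference was −0.13 (95% interval −0.26 to −0.00), and that of 1442732_at was −0.00 (−0.22 to 0.21). With the mean of the 3 probe sets the averaged difference of Hadhb was 0.13 and not called (adjusted p = 0.173). Hadha encodes the α subunit of the same protein, and its promoter window overlaps the one printed for Hadhb. It had 1 probe set and differed by −0.23 (SE 0.08, adjusted p = 0.0926).

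The remaining genes of these steps did not pass by genotype. Acaa2, the mitochondrial thiolase of the last step, read 11.60, 11.47 and 11.64 on WT normal arrays and 11.26, 11.17 and 11.20 on KO normal arrays. Under high fat it read 11.54, 11.39 and 11.19 in WT and 11.56, 11.51 and 11.10 in KO. The genotypes were apart on the normal diet (−0.36, adjusted p = 0.146) and mixed under high fat (0.02, adjusted p = 0.962). Hadh, the short-chain hydroxyacyl-CoA dehydrogenase that also restrains insulin secretion in β-cells, was bright, with a mean of 14.56 and a range of 14.46 to 14.62. Its averaged difference was 0.03 (95% interval −0.07 to 0.13), and the sign turned after cyclic loess. Acat1, the thiolase of acetoacetyl-CoA, differed by −0.07 (adjusted p = 0.385). On its set 1424182_at the normal-diet means were 12.27 in WT and 12.02 in KO, without overlap, and the high-fat means 11.99 and 12.06. On 1424183_at they were 12.51 and 12.36, and 12.58 and 12.44.

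The 4 auxiliary enzymes that handle double bonds of unsaturated fatty acids, Eci1, Eci2, Decr1 and Ech1, lay below WT on all 3 KO normal arrays. That was so for 22.2% of all genes. The normal-diet differences of the 4 enzymes ran from −0.34 to −0.20, with 0 called. Decr1, the dienoyl-CoA reductase, had the smallest p, with −0.34 on the normal diet (adjusted p = 0.103) and −0.25 averaged (adjusted p = 0.0531). Its second probe set, with a mean level of 10.12, differed by 0.04.

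Among the peroxisomal genes, Acaa1a and Acaa1b, which encode closely related 3-ketoacyl-CoA thiolases, went in opposite directions. Acaa1a read 10.18, 10.40 and 10.24 on WT normal arrays and 10.59, 10.59 and 10.72 on KO normal arrays. The high-fat values were 10.05, 10.18 and 10.25 in WT and 10.58, 10.43 and 10.54 in KO. Every KO array was above every WT array, and the averaged difference was 0.36 (SE 0.06, 1.28-fold, adjusted p = 0.011), called without each of the 12 arrays in turn (0.0112 to 0.0366). Within a diet it was 0.36 on both (adjusted p = 0.071 and 0.152). Its second probe set differed by 0.37, and both names end in _x_at.

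Acaa1b read 7.70, 7.81 and 7.83 on WT normal arrays and 7.42, 7.42 and 7.50 on KO normal arrays. With the high-fat diet it read 8.18, 7.73 and 8.62 in WT and 7.95, 7.58 and 7.72 in KO. The genotypes were apart on the normal diet and overlapped on the high-fat diet, where WT arrays 1 and 3 were the highest of all 12. The averaged difference of −0.38 was not called (SE 0.13, adjusted p = 0.0878). Because the coding sequences of these neighbouring genes are alike, probes of 1 gene could read the other, which was not tested. Ehhadh, the peroxisomal bifunctional enzyme, differed by −0.06 (adjusted p = 0.631), and the sign turned after cyclic loess.

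The acyl-CoA thioesterases Acot1 (cytosolic) and Acot2 (mitochondrial) are both PPARα targets. On the probe sets used they read lower on all KO arrays of the normal diet, without passing the test. A separation in this direction was seen in 22.2% of all genes. Acot1, dim at a mean of 5.71, read 5.99, 5.78 and 6.11 on WT normal arrays and 5.68, 5.46 and 5.27 on KO normal arrays. High-fat arrays read 5.80, 5.63 and 5.60 in WT and 5.76, 5.81 and 5.57 in KO. The genotypes were apart on the normal diet (−0.49, SE 0.12, adjusted p = 0.0798) and overlapped under high fat (0.04, adjusted p = 0.905). Acot2 read 11.35, 11.42 and 11.37 on WT normal arrays and 11.27, 11.16 and 11.08 on KO normal arrays. Under high fat it read 11.37, 11.43 and 11.10 in WT and 11.44, 11.30 and 11.33 in KO. Its normal-diet difference was −0.21 (adjusted p = 0.22), with the arrays apart by genotype, and 0.06 under high fat (adjusted p = 0.817), where they overlapped.

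Of the regulators and remaining PPAR targets 0 were called by genotype. Ppara was dim, with a mean of 5.91. It read 5.85, 5.90 and 5.70 on WT normal arrays and 5.88, 6.13 and 6.00 on KO normal arrays, and 5.78, 5.96 and 6.02 in WT and 5.95, 6.00 and 5.76 in KO on the high-fat diet. The groups overlapped on both diets, and the averaged difference was 0.08 (95% interval −0.07 to 0.24). Another probe set of Ppara, 1457721_at, had a similar level (mean 5.82) and another pattern. Its normal-diet means were 5.97 in WT and 5.71 in KO, with overlap. On the high-fat diet they were 5.69 and 5.89, with every KO array above every WT array. Pdk4, the kinase that shuts pyruvate dehydrogenase when fatty acids are burned, read 12.89, 13.19 and 13.04 on WT normal arrays and 13.26, 12.80 and 13.28 on KO normal arrays. The high-fat values were 12.95, 12.93 and 12.53 in WT and 12.97, 12.95 and 12.99 in KO. Its genotypes overlapped on the normal diet and were apart by a small margin on the high-fat diet (0.17, adjusted p = 0.622).

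Angptl4, a secreted inhibitor of lipoprotein lipase, read 6.50, 6.48 and 6.82 on WT normal arrays and 6.57, 6.30 and 6.73 on KO normal arrays. With the high-fat diet it read 7.19, 6.72 and 6.37 in WT and 6.52, 6.83 and 6.73 in KO. WT high-fat array 1 was the highest, the groups overlapped, and the averaged difference was −0.07 (95% interval −0.37 to 0.23). Plin2, a coat protein of lipid droplets, read 10.64, 10.75 and 10.76 on WT normal arrays and 10.76, 10.41 and 10.49 on KO normal arrays. High-fat arrays read 10.93, 10.62 and 10.75 in WT and 10.73, 10.61 and 10.46 in KO. Its groups overlapped on both diets, and the averaged difference was −0.16 (95% interval −0.34 to 0.01, adjusted p = 0.205).

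Cd36, the fatty acid translocase of the cell surface, read 6.67, 7.17 and 7.03 on WT normal arrays and 6.89, 6.24 and 5.91 on KO normal arrays. Under high fat it read 6.83, 6.91 and 7.08 in WT and 6.88, 6.57 and 6.80 in KO. KO normal array 1 lay within the WT range, and KO normal arrays 2 and 3 were the lowest of all 12. The difference was −0.61 on the normal diet (SE 0.22, adjusted p = 0.15) and −0.40 averaged (adjusted p = 0.118); the latter was called without KO normal array 1, and in none of the other settings that leave out 1 array. Of its 2 further probe sets, 1 differed by −0.38 and the other by −0.02. Cd36 is also known in capillary endothelium, and all 10 endothelial markers were lower in KO averaged over the diets (median −0.221). Their mean level ran from 9.68 to 9.87 on WT normal and 9.52 to 9.59 on KO normal arrays, and from 9.84 to 9.91 and 9.63 to 9.75 on the high-fat diet. Pecam1 and Kdr, endothelial surface receptors, fell by 0.50 and 0.23 (adjusted p = 0.0318 and 0.0448). The part of these cells in the values of Cd36 was not tested.

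The rises of Hadhb and Acaa1a shared a kind of probe set. In Affymetrix names the ending _x_at marks a set in which some probes match other transcripts as well. The 30 genes had 9 such sets, in 6 genes, and all 9 read higher in KO averaged over the diets, with a median of 0.360 and 7 of 9 called when every probe set was fitted as its own row, a fit that called 10.1% of all 28689 sets and 19.3% of those of this kind. Of the 44 other sets of these genes above the filter 9 read higher, the median was −0.128 and 4 were called, for Acadl, Etfa, Etfb (adjusted p = 0.043) and Decr1 (adjusted p = 0.0456), all lower; that is close to the 10.1% of all sets. Across the whole array 60.6% of the 1636 sets of this kind read higher in KO (median 0.051), against 40% of all sets (median −0.045), and 285 of their calls were higher and 31 lower.

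Cpt1a and Cpt2 showed the same disagreement within a gene. On 1434866_x_at, Cpt1a read 9.81, 10.44 and 10.67 on WT normal arrays and 11.12, 10.59 and 10.78 on KO normal arrays, and 10.05, 10.36 and 9.84 in WT and 10.90, 10.70 and 10.94 in KO on the high-fat diet. The KO arrays were mostly above the WT arrays, whereas on 1460409_at, the set used above, they were mostly below. In the fit of every probe set, the _x_at sets of Cpt1a rose by 0.64 and 0.62 (adjusted p = 0.0229 and 0.0259), beside −0.26 for 1460409_at (adjusted p = 0.0737). For Cpt2 the _x_at set rose by 0.26 (adjusted p = 0.0141), beside −0.29 for the other (adjusted p = 0.0786). Of the _x_at sets of Hadh, 1 rose by 0.24 (adjusted p = 0.0317) and the other differed by 0.03. With all _x_at sets left out, a setting chosen after the values had been seen, 2 of the genes were called averaged over the diets, Acadl and Etfa, and 0 on the normal diet. What these probes match was not tested.

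**Figure D4:**
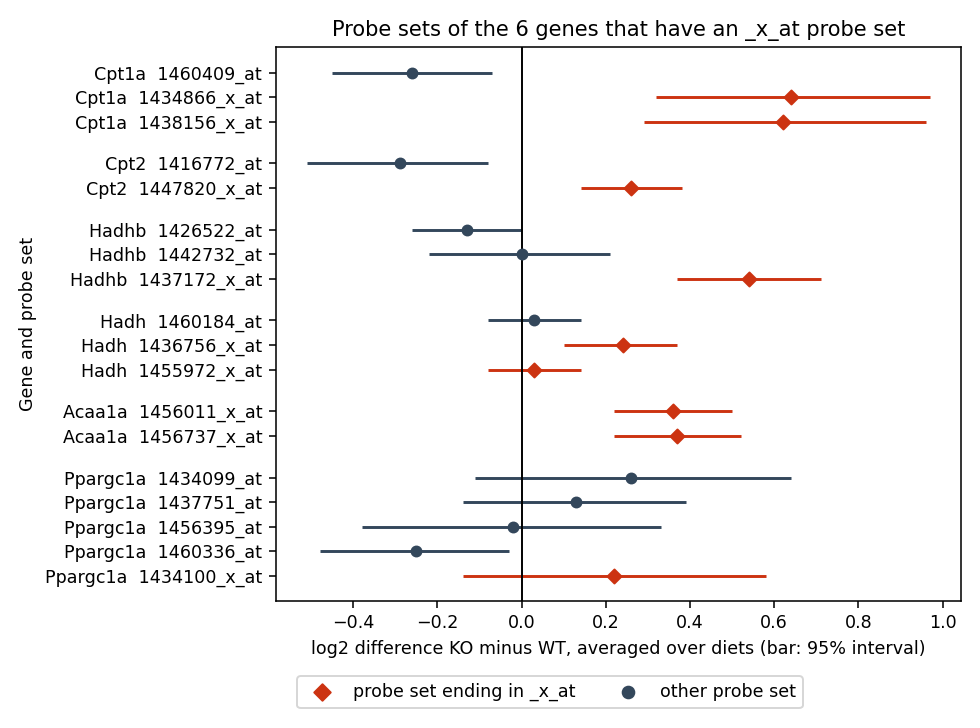
Log2 difference KO minus WT averaged over the diets for each probe set of the 6 genes that have an _x_at set (red diamonds, _x_at; dark circles, other), with 95% intervals of the fit over 6 against 6 arrays. The red diamonds all lie right of 0, while the other sets of Cpt1a, Cpt2 and 1426522_at of Hadhb lie left of it.

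The comparison of diets asks what the high-fat diet did to these genes in each genotype. The clearest difference was in Ppargc1a, whose product PGC-1α drives transcription for mitochondrial biogenesis and fatty acid oxidation, and it was not accompanied by the oxidation genes themselves. On the probe set with the highest mean, 1434100_x_at, Ppargc1a read 7.26, 7.58 and 8.00 on WT normal arrays and 8.83, 9.23 and 8.52 on WT high-fat arrays. In KO it read 8.19, 7.92 and 8.31 on the normal diet and 9.17, 8.53 and 8.60 on the high-fat diet. Every high-fat array was above every normal-diet array of either genotype, which was so for 0.44% of all genes in this direction; 0 of the 30 genes were apart in the other (0.518%).

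On this probe set the diet difference of Ppargc1a was 1.25 in WT (SE 0.23, 2.37-fold, adjusted p = 0.101), 0.63 in KO (SE 0.23, 1.54-fold, adjusted p = 0.561) and 0.94 averaged (SE 0.17, 1.91-fold, adjusted p = 0.0614), and none of these passed the threshold. With the same-numbered KO arrays as a random block, a setting added after the values had been seen for this comparison, the averaged rise of 0.94 was called (SE 0.15, adjusted p = 0.0274), as were 84 genes in all in place of 30, while WT and KO alone were at adjusted p of 0.0998 and 0.176. On all 5 probe sets of the gene every high-fat array lay above every normal-diet array in WT and in KO. Of all genes, 5.63% were apart in this direction in WT and 6.32% in KO. The 5 sets were read on the same arrays, so they are not independent repeats of the diet comparison. Their averaged differences ran from 0.83 to 1.02. In the fit of every probe set, which called 0.146% of all sets, 2 of the 5 passed: 1437751_at rose by 0.83 (adjusted p = 0.0273) and 1460336_at by 1.02 (SE 0.10, adjusted p = 0.0109).

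Probe set 1460336_at had the smallest standard error. It read 6.20, 6.41 and 6.30 on WT normal arrays, 6.28, 6.16 and 6.19 on KO normal arrays, 7.28, 7.56 and 7.60 on WT high-fat arrays and 7.44, 6.84 and 6.94 on KO high-fat arrays. The diets were apart by more than the range within either normal group, and KO high-fat arrays 2 and 3 were the lowest of the 6 high-fat arrays. Its rise of 1.18 passed in WT (adjusted p = 0.0341; 0.0488% of all sets were called), and the difference of 0.87 in KO did not (adjusted p = 0.3). With the mean of the 5 probe sets as the value of the gene, Ppargc1a rose in WT by 1.07 (adjusted p = 0.043) and averaged by 0.92 (adjusted p = 0.0173).

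**Figure D5:**
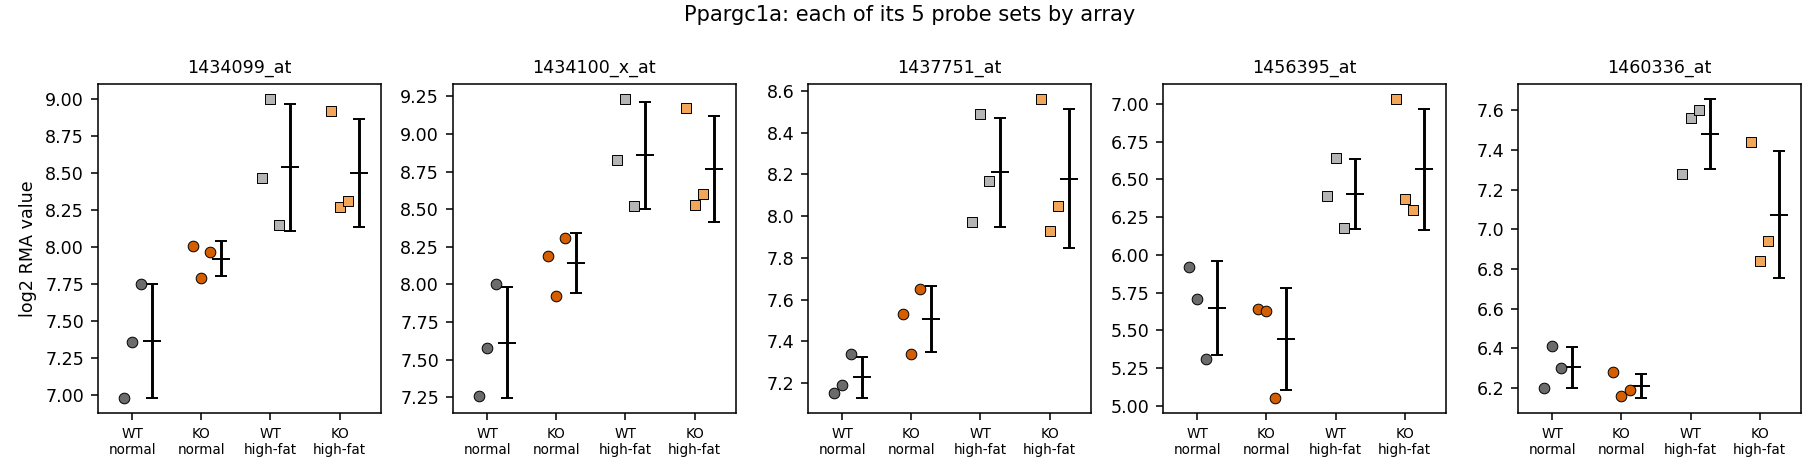
Log2 values of the 5 probe sets of Ppargc1a by array in the 4 groups (circles, normal diet; squares, high-fat diet; grey, WT; orange, KO), with the group mean and SD over 3 arrays beside the points; the axes start above 0 and differ between panels. In all 5 panels the squares lie above the circles, and on 1434100_x_at the KO normal arrays, at 7.92 to 8.31, lie below the high-fat arrays and overlap the WT normal arrays.

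By genotype the probe sets of Ppargc1a differed in sign, and 0 of them were called, against 1.9% of all sets on the normal diet and 0.282% on the high-fat diet. On the normal diet the KO minus WT difference was 0.53 on 1434100_x_at (SE 0.23, adjusted p = 0.218), and over the 5 sets it ran from −0.21 to 0.57. On the high-fat diet it ran from −0.41 to 0.16. The difference between the diet effects of the genotypes was −0.62 on 1434100_x_at (SE 0.33, unadjusted p = 0.088, adjusted p = 0.988) and ran from −0.62 to 0.37 over the 5 sets, with 0 called, so that a smaller diet effect in KO was not shown.

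No other gene of the list was called by diet either, at an adjusted p under 0.05 in limma. In WT 12 genes in all were called (0.0788%), in KO 0 (0%) and averaged over the genotypes 30 (0.197%), and 0 of the 30 genes of the list were among them. At an unadjusted p under 0.05 there were 2, 1 and 3 of the 30, against 11.1%, 7.7% and 13.6% of all genes. The median diet difference of the 30 genes was −0.032 in WT, 0.033 in KO and −0.007 averaged, against −0.017, −0.006 and −0.014 over all genes. In WT, Ech1 and Eci2 had every high-fat array below every normal-diet array (10.2% of all genes) and Ppargc1a alone had every one above (5.63%). In KO, Acaa1b, Acot2, Eci1, Hadh and Ppargc1a were apart upward (6.32%) and Acaa1a and Hadhb downward (6.71%).

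The diet differences with the next smallest p were modest. Acaa1b, by the values given above, was 0.40 higher in WT (adjusted p = 0.451) and 0.35 averaged (SE 0.13, adjusted p = 0.271). Its WT high-fat arrays ranged from 7.73 to 8.62, wider than any other group of this gene. The 4 hepatocyte markers tested read higher on the high-fat diet in WT (median 0.759) and 3 of the 4 lower in KO (median −0.070), with 0 called. Their array score on the WT high-fat arrays was 1.09, −0.127 and 0.52, so that array 2 was lowest in this score as in Acaa1b. Their mean level ran from 7.30 to 8.51 on these arrays and from 6.94 to 7.69 on the other 9, and of the defining markers Alb read 6.11 on average and Cyp2e1, at 3.52, was below the filter. Their part in the values of Acaa1b was not tested. For Acot1 the diet difference was −0.28 in WT (adjusted p = 0.421), against 0.25 in KO (adjusted p = 0.692). Cpt1a was 0.25 in KO (adjusted p = 0.678) and 0.02 in WT (adjusted p = 0.983), Acot2 was 0.19 in KO (adjusted p = 0.684), and Hadhb was −0.18 averaged (adjusted p = 0.335). For the PPAR targets Pdk4, Angptl4, Plin2 and Cd36 the averaged differences were −0.19, 0.16, 0.05 and 0.19, with adjusted p of 0.461 or higher. Of other markers, all 5 of Schwann cells read lower on the high-fat diet averaged over the genotypes (median −0.431; mean level 5.97 to 7.0 on WT normal, 6.20 to 6.47 on KO normal, 5.75 to 6.12 on WT high-fat and 5.80 to 6.12 on KO high-fat arrays). Of 13 acinar markers 12 read lower (median −0.112; mean level 12.03 to 12.57 on WT high-fat and 12.33 to 12.43 on KO high-fat arrays). None of either list was called by diet, and their part in the diet differences, that of Ppargc1a included, was not tested.

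A test of whether the genotypes differed in their response to the diet called 0 genes, in the list and in all (0%), while 1 of the 30 genes and 758 genes in all (4.97%) had an unadjusted p under 0.05. The smallest p of the list was that of Acot1, for which the KO minus WT difference on the high-fat diet exceeded that on the normal diet by 0.53 (SE 0.17, unadjusted p = 0.0111, adjusted p = 0.891). The same difference was 0.38 for Acaa2 (unadjusted p = 0.0569) and 0.27 for Acot2 (unadjusted p = 0.0703). Of the 30 genes 20 were above 0, and the median was 0.069 against 0.016.

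Further genes of the pathway were read from 7 lists, against the 6.32% of all genes called averaged over the diets. Of 20 other peroxisomal genes tested, 3 rose and 2 fell in KO averaged over the diets. Cat, the hydrogen peroxide scavenger catalase, rose by 0.48 (SE 0.08, adjusted p = 0.0117), also on the normal diet by 0.59 (adjusted p = 0.0452), and its second probe set differed by 0.42. Scp2, a thiolase and sterol carrier, rose by 0.42 (adjusted p = 0.0117), with further sets at 0.66, 0.47 and −0.17. Hsd17b4, the bifunctional enzyme of branched-chain oxidation, rose by 0.34 on an _x_at set (adjusted p = 0.0318), while its other set differed by −0.23. Pex5, the import receptor of peroxisomal enzymes, fell by 0.36 (adjusted p = 0.0303), and Hacl1, which cleaves 2-hydroxyacyl-CoA, by 0.32 (adjusted p = 0.0488). The list was not uniform: 8 genes were higher and 12 lower, with a median of −0.108.

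The other lists held few called genes in that comparison. Of 23 other mitochondrial genes 17 were lower (median −0.115), and Nnt, which makes mitochondrial NADPH, rose by 0.36 on an _x_at set (adjusted p = 0.0118) with its other sets at 0.07 and 0.05. Of 17 genes of fatty acid uptake and activation, Acsl6, an acyl-CoA synthetase, fell by 0.21 (adjusted p = 0.0377), with −0.39 on the normal diet (adjusted p = 0.0445), but its second set differed by 0.11 (adjusted p = 0.481 with every set as its own row). Of 18 PPAR receptors and cofactors, the coactivator Ncoa2 rose by 0.38 (adjusted p = 0.0109), but a further set fell by 0.29 (adjusted p = 0.0187) and 2 differed by 0.13 and −0.19. Of 16 lipid droplet and lipolysis genes, Bscl2 (seipin) fell by 0.27 (adjusted p = 0.0151), and its second set differed by −0.23. Of 11 genes of pyruvate dehydrogenase control and uncoupling 0 were called, with Pdp1, a pyruvate dehydrogenase phosphatase, at 0.48 (adjusted p = 0.0802) and Slc25a14, a mitochondrial carrier, at 0.09 (adjusted p = 0.272). Of 22 other PPAR targets 17 were lower (median −0.091) and 0 were called; Creb3l3, a transcription factor of fasting metabolism, differed by −0.36 (adjusted p = 0.0526), and Scd1, which desaturates fatty acids, by −0.11 (adjusted p = 0.664). By diet, averaged over the genotypes, 0 genes of these lists were called. Every high-fat array of Scd1 lay below every normal-diet array (−0.65, SE 0.15, adjusted p = 0.125), as in 0.518% of all genes.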

How the data were processed

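The deposited values are log2 expression values that the authors made with RMA in Partek 6.6, per the labels and the submitters' processing notes, one per probe set and array; raw intensities were not used here. Background correction and normalization were thus done before deposit, and only their scale could be changed. Of 45101 probe sets, 64 are controls; 34945 have 1 gene symbol in the platform annotation, 932 several and 9160 are not listed, and 34741 were matched to RefSeq by Entrez identifier. Each gene took its probe set with the highest mean, and 15237 genes above log2 5 on at least 3 arrays were tested. Array medians were 7.0 to 7.13, and 75.9 to 77.3% of probe sets were above log2 5 on an array; the number of arrays limits the precision.

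Differences were fitted with limma 3.58.1 in R 4.3.3 (lmFit and eBayes, 1 coefficient per group, all 12 arrays, 8 residual degrees of freedom), two-sided, with Benjamini-Hochberg adjustment over all genes tested and a threshold of 0.05; intervals use the moderated degrees of freedom. The code was tested on simulated data. The genes and lists were chosen with earlier results of these data known. Values by array are given for genes called in any comparison, the 3 with the smallest p in each, and the PPAR targets, Ppara and Ppargc1a; for the other pathway lists the called genes are named or, where none passed, the 2 with the smallest p. Alternatives were other scalings, filters and probe-set rules, blocks, and leaving out each array. The main fit, used where no other is named, had no block or pairing. Same-numbered KO arrays correlated across the diets (r = 0.29, 0.38 and 0.14 of deviations from group means), so these numbers were treated as pairing in alternative fits only. Other pairs of groups did not meet that rule (r from −0.51 to 0.11). Plots used Python 3.11.15 and matplotlib 3.10.9.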

Additional observations from a re-analysis of the deposited data

How the results depend on the processing

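Averaged over the diets, Acadl kept its direction and its call in all 20 alternatives and Acaa1a in all 19 that gave a value, whereas Hadhb reversed with _x_at probe sets left out (−0.10 on the normal diet, −0.17 on the high-fat diet and −0.13 averaged) because another probe set then stands for it. That setting gave no value for Acaa1a, because both of its probe sets end in _x_at, and its rise could not be checked in this way. For the genotype on the normal diet, 128 genes were called as deposited, 238 after centring each array on its median, 69 with the mean of probe sets and 9 with the replicate block; of the list 2 were called, against 1 after cyclic loess, 3 after centring, 1 with the mean of probe sets, 0 without _x_at sets, 0 with the block and 1 with KO pairs as a random block. On the high-fat diet 4 genes were called, against 6 after cyclic loess, 8 after centring, 2 without _x_at sets and 2 with the block. Averaged, 963 genes were called, against 524 with the replicate block and 352 with KO pairs as a random block, and of the list 4, against 2 with the mean of probe sets and 2 without _x_at sets. By diet in WT 12 genes were called, against 18 after cyclic loess, 0 with the block and 5 with KO pairs as a random block, in KO 0, against 10 with the random block, and averaged 30, against 0 with the block and 84 with the random block. Of the list, Ppargc1a alone was called by diet: in WT with the mean of probe sets (1 gene), and averaged with that mean (1) and with the random block (1). For comparisons other than the genotype average the random block was added after the values had been seen. Leaving out 1 array gave 2 to 223 genes and 0 to 2 of the list on the normal diet, 0 to 272 and 0 to 2 on the high-fat diet, 255 to 2500 and 3 to 11 averaged, 0 to 11 by diet in WT and 0 to 30 by diet averaged, with 0 of the list by diet. Where not stated, the cause was not tested. Signals close to the filter, as for Acot1 and Ppara, limit what small differences there can show.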
